A study of Homo sapiens with 4 samples.

Results

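The genes described here are plakins, desmosome proteins and epithelial keratins, measured by RNA-seq in A549 cells after knockdown of USP2-AS1. The rule took the rows of the deposited expression table whose gene name was EPPK1, PLEC, DSP, JUP, PPL, KRT7, KRT8, KRT18, KRT19 or KRT80. Of these 10 genes, 9 were listed among the 6828 genes of the table, and PPL, the gene of the desmosomal plakin periplakin, was not. The table lists only genes that passed the authors' own test of the same comparison, so the absence of PPL gives no level and no direction for it. Because the members were chosen with their values in this comparison known, their values are given as a description, without a test.

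A549 is a human lung adenocarcinoma line of epithelial origin. In the shctrl group the cells were infected with a lentivirus expressing a control shRNA, and in the shUSP2-AS1 group with a lentivirus expressing an shRNA against USP2-AS1, a long noncoding RNA. Both groups carried the PLKO.1 vector, were selected with puromycin and were collected 72 h after infection, with 2 libraries in each group. The labels do not say which USP2-AS1 shRNA was used, and a single cell line was studied.

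Intermediate filaments of simple epithelia are built from pairs of 1 type I and 1 type II keratin. KRT8 and KRT18 are the usual pair of simple epithelial cells, KRT19 is a second type I keratin and KRT7 a second type II keratin of glandular and airway epithelium, and KRT80 is a type II keratin found with desmosomes. Plakins are large linker proteins that tie these filaments to the cell surface and to other parts of the cytoskeleton. DSP (desmoplakin) joins keratin to desmosomes, the spot-like junctions between neighbouring cells, through JUP (plakoglobin), which binds the desmosomal cadherins. PLEC (plectin) joins keratin to hemidesmosomes, which hold the cell to the matrix, and EPPK1 (epiplakin) binds keratin filaments along their length.

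The targeted RNA was lower in the libraries labelled shUSP2-AS1. USP2-AS1 had 24 and 22 reads with the control shRNA, against 2 and 7 reads with the USP2-AS1 shRNA, a log2 fold change of -2.39 with a standard error of 0.56 (limma adjusted p = 0.000597). Reads on listed genes ran from 10772788 to 14120472 per library. Values below are normalized read counts, that is, reads divided by a size factor, and 1 read was worth 0.88 to 1.10 in the 4 libraries. Fold changes are on the log2(value + 1) scale, as shUSP2-AS1 over shctrl, and a gene was called when its adjusted p was below 0.05 and its log2 fold change was at least 1 in size. Of the 6812 genes tested, 29.7% were called, 16.1% as higher and 13.5% as lower. Adjusted p below 0.05 alone held for 6811 genes, 100% after rounding, and the groups did not overlap in the same number of genes, again 100% after rounding, so neither criterion separates genes within this table. Over all tested genes the median was a log2 fold change of 0.19, with quartiles at -0.67 and 0.72.

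Of the 9 listed members, 6 had higher values and 3 had lower values in the shUSP2-AS1 libraries. In each of the 9 the 2 groups did not overlap, as in 6811 of the 6812 tested genes. EPPK1 and KRT18 were past the call rule, 1 in each direction, which stands beside the 16.1% and 13.5% of all tested genes and, as the members were selected on this contrast, is not read further. The member median was a log2 fold change of 0.36. The plakins and JUP all had higher values, whereas the keratins were divided, with KRT18, KRT8 and KRT7 lower and KRT19 and KRT80 higher. Nearest to the call rule, KRT18 was inside it with -1.05, and KRT8 with -0.77 and KRT19 with 0.75 were outside it.

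**Figure D1:**
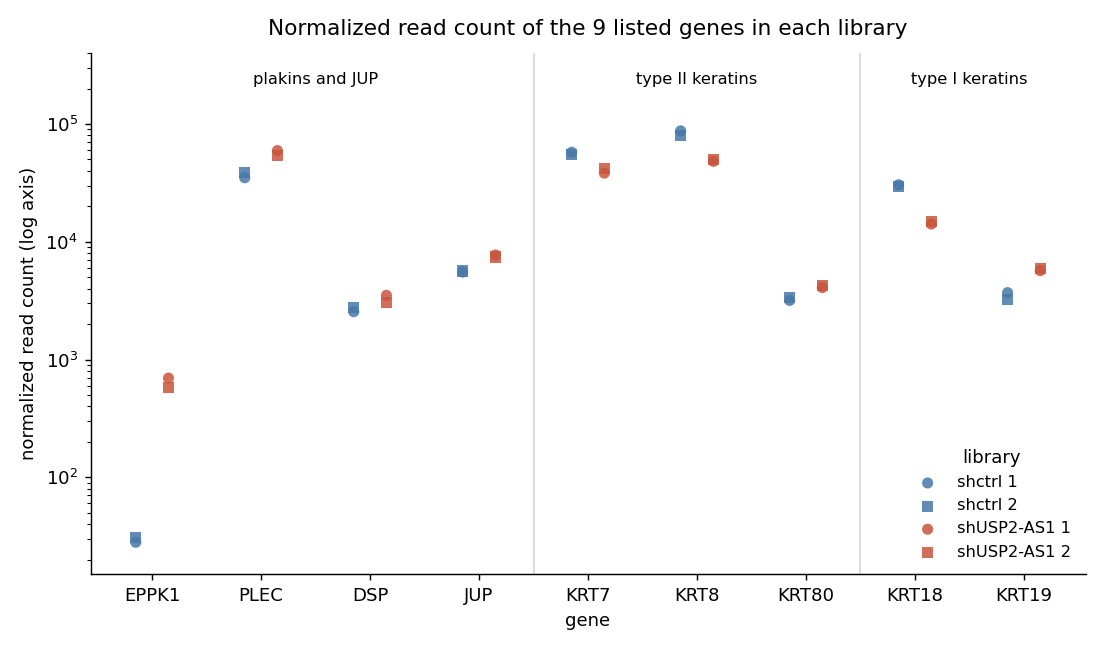
Normalized read count (log axis) of the 9 listed genes in each of the 4 libraries, with shctrl in blue, shUSP2-AS1 in red, circles for replicate 1 and squares for replicate 2. EPPK1 has the widest gap (28.0 and 30.8 in shctrl, 695 and 578 in shUSP2-AS1). The 2 groups are apart in every gene shown, as in 6811 of the 6812 tested genes.

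RefSeq promoter entries were matched for 3 of the members, DSP, JUP and KRT8. Those of DSP and JUP are shown because these are the 2 desmosome members, whose values were both higher in the shUSP2-AS1 libraries. Each line gives the 250 bases before the RefSeq gene start, 5′ to 3′ on the gene's strand, in GRCh38.p14. The DSP window is chr6:7541421-7541670 on the plus strand and the JUP window is chr17:41786712-41786961 on the minus strand, and both run into the gene as the table places it, since other transcripts start further upstream. Capitals mark matches, on either strand, to a GC box (GGGCGG) or a CCAAT box (CCAAT).
DSP promoter: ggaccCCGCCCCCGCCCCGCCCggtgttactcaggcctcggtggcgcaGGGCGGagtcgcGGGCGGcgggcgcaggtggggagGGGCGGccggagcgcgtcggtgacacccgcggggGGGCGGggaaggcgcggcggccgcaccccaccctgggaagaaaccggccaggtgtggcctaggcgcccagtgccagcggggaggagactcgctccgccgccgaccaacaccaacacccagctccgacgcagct
JUP promoter: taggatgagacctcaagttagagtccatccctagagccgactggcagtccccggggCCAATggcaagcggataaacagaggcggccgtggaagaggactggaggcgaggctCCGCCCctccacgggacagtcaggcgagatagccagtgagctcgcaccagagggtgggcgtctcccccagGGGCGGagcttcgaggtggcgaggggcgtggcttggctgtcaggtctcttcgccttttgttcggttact

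The DSP window was 78.0% G and C and held 7 GC boxes, overlapping matches each counted. The JUP window was 63.6% G and C and held 2 GC boxes and 1 CCAAT box. For comparison, 42.6% of 35116 RefSeq promoter windows of the same length held a GC box and 32.0% a CCAAT box, and their median content was 58.0% G and C. The same windows were searched on both strands for the AP-1 motif TGANTCA (6.57% of all windows), the TATA box TATAAA (10.7%), the E-box CACGTG (6.34%) and the grainyhead motif AACCGGTT (0.117%), and neither window held these letters. A second JUP window, chr17:41785977-41786226, and the KRT8 window, chr12:52926470-52926719, held none of the 6 motifs. Both of these windows lie wholly inside the gene as the table places it. Other starts of KRT8 were not searched.

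EPPK1 had the largest log2 fold change of the members. It had 28.0 and 30.8 normalized reads with the control shRNA, against 695 and 578 with the USP2-AS1 shRNA, a 21.7-fold higher mean. Its log2 fold change was 4.39 with a standard error of 0.16, and its rank from the top was 9 among the 6812 tested genes. Any pairing of 1 shUSP2-AS1 library with 1 shctrl library gave a ratio between 18.8 and 24.8. The control level rests on 29 and 28 reads, so the size of the ratio is limited by counting error in those libraries. The standard error of 0.16 and the range of 18.8 to 24.8 may understate that error. Even so, EPPK1 remained the least abundant member per length in both groups, at 1.84 ± 0.12 normalized reads per kb (SD, n = 2) in shctrl and 39.8 ± 5.15 in shUSP2-AS1. The gene (ENSG00000261150) lies on chromosome 8 from 143857324 to 143878467 on the minus strand in GRCh38, and 99.81% of its 16005-base transcript is a single coding exon made of long repeats. Of its 100-base windows, 46.0% occurred more than once within the transcript itself and none occurred in the transcript of another gene.

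PLEC (ENSG00000178209), the only other listed member on chromosome 8, lies 36679 bases from EPPK1 on the same strand (143915147 to 143976734). It had 34999 and 38543 normalized reads in shctrl and 59454 and 54076 in shUSP2-AS1. This is a difference in means of 1.54-fold, from 36771 ± 2506 to 56765 ± 3803, and a log2 fold change of 0.63 with a standard error of 0.06. Both shUSP2-AS1 libraries lay well above both shctrl libraries. PLEC was the most abundant plakin by far. Per kb of gene length its level was 1178 ± 2.38 times that of EPPK1 in shctrl and 84.3 ± 5.30 times in shUSP2-AS1. The shctrl ratio rests on 29 and 28 EPPK1 reads, so the SD of 2.38 understates its uncertainty.

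DSP (ENSG00000096696) had the smallest fold change in size among the members. Its values were 2546 and 2780 in shctrl and 3508 and 3074 in shUSP2-AS1 (log2 fold change 0.30, standard error 0.06). The gap between the groups was narrow relative to the replicate spread, since the lowest ratio between a shUSP2-AS1 and a shctrl library was 1.11 and the highest 1.38. DSP lies on chromosome 6 from 7541617 to 7586714 on the plus strand.

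JUP, its desmosomal partner, had 5529 and 5650 normalized reads in shctrl and 7718 and 7426 in shUSP2-AS1. Its log2 fold change was 0.44 with a standard error of 0.05, and its means were 5589 ± 85.4 and 7572 ± 206. The replicates of JUP were tighter than those of DSP in both groups. JUP lies on chromosome 17 from 41754604 to 41786931 on the minus strand. The ratio of DSP to JUP per kb was 0.234 ± 0.011 in shctrl and 0.214 ± 0.0141 in shUSP2-AS1. The lowest shctrl library, at 0.226, and the highest shUSP2-AS1 library, at 0.224, were nearly level in this ratio.

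KRT18, a type I keratin and the partner of KRT8, was the member with the lowest fold change. Its values were 30473 and 29565 in shctrl and 14145 and 14811 in shUSP2-AS1, a 2.07-fold lower mean. The log2 fold change was -1.05 with a standard error of 0.05. With upper quartile scaling of the libraries it was -0.99, outside the call rule. KRT18 lies on chromosome 12 from 52948871 to 52952906 on the plus strand.

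KRT8, its type II partner, was also lower in both shUSP2-AS1 libraries. It had 87504 and 79777 normalized reads in shctrl and 48220 and 49976 in shUSP2-AS1. Its log2 fold change was -0.77 with a standard error of 0.06. KRT8 lies next to KRT18 on the opposite strand (52897187 to 52949954), and the 2 annotated genes overlap by 1084 bases. Of the 100-base windows of the KRT18 transcript, 18.5% are also found in transcripts annotated to KRT8, and 7.12% of the windows of KRT8 are found in KRT8 pseudogenes. Whether strand was used in counting is not given in the sources used here, so the division of reads between KRT8 and KRT18 in the overlap is uncertain.

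The ratio of KRT8 to KRT18 did not stay the same. Per kb of the canonical transcript it was 2.27 and 2.14 with the control shRNA, against 2.70 and 2.67 with the USP2-AS1 shRNA. The fold by which KRT18 was lower thus exceeded that of KRT8, and the libraries of the 2 groups did not overlap in this ratio. With the gene length in the table, the means were 1.24 ± 0.0546 (SD, n = 2) and 1.51 ± 0.011.

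KRT7 had the smallest fold change of the 3 keratins that were lower. It had 57568 and 55535 normalized reads in shctrl and 38282 and 42083 in shUSP2-AS1. Its log2 fold change was -0.49 with a standard error of 0.06. KRT7 lies on chromosome 12 from 52232520 to 52252186 on the plus strand. On the opposite strand it overlaps KRT7-AS by 2401 bases and the keratin pseudogene KRT87P by 1721 bases, and both were also lower in the shUSP2-AS1 libraries. KRT7-AS had 459 and 481 normalized reads in shctrl and 332 and 365 in shUSP2-AS1, and KRT87P had 1171 and 1178 against 666 and 670. Reads of KRT7 and of these genes cannot be told apart without strand where they overlap.

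KRT19 and KRT80 had higher values in the shUSP2-AS1 libraries. KRT19, a type I keratin without the tail domain of the others, had 3699 and 3254 normalized reads in shctrl and 5689 and 5952 in shUSP2-AS1. Its log2 fold change was 0.75 with a standard error of 0.06. It lies on chromosome 17 from 41523617 to 41528308 on the minus strand, within the type I keratin cluster and 226295 bases from JUP. KRT80 had 3177 and 3334 normalized reads in shctrl and 4081 and 4284 in shUSP2-AS1 (log2 fold change 0.36, standard error 0.05). It lies on chromosome 12 from 52168996 to 52192014 on the minus strand, 40505 bases from KRT7, which had the opposite direction. No 100-base window of the KRT19, KRT80, PLEC, DSP or JUP transcript was found elsewhere.

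**Figure D2:**
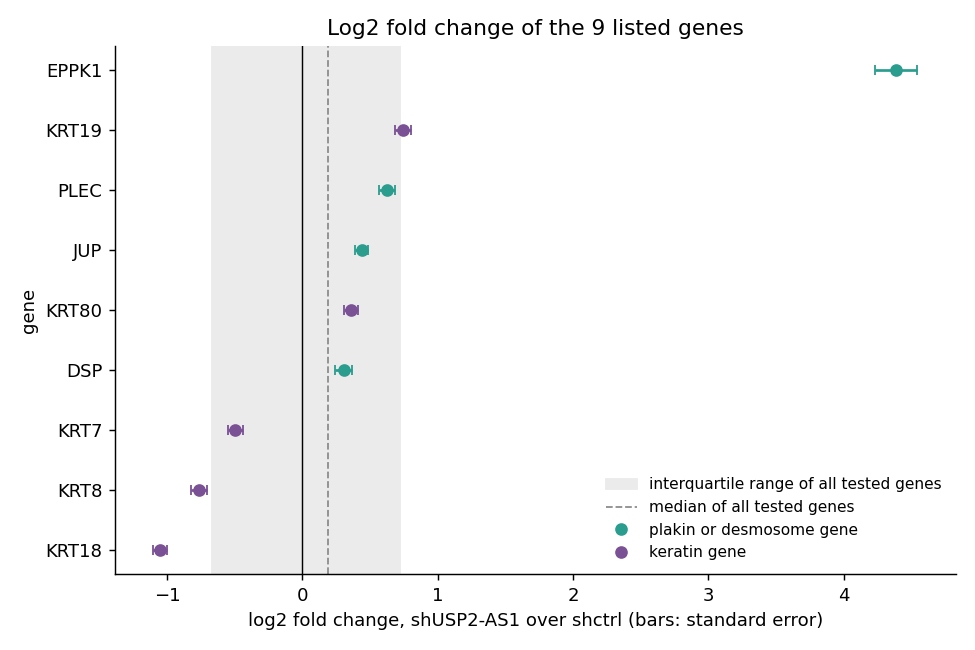
Log2 fold change (shUSP2-AS1 over shctrl) of the 9 listed genes with standard errors, plakin and desmosome genes in green and keratin genes in purple, against the interquartile range (grey) and the median (dashed) of all tested genes. EPPK1 stands at 4.39, the 3 lower keratins run from -1.05 to -0.49, and the other 5 genes lie between 0.30 and 0.75.

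Type I and type II keratins pair in equal numbers in the filament, so the 2 sides were set against each other per length. The sum of KRT7, KRT8 and KRT80 over that of KRT18 and KRT19 was 2.42 and 2.38 per kb with the control shRNA, against 2.49 and 2.55 with the USP2-AS1 shRNA. The means, 2.40 ± 0.0269 and 2.52 ± 0.0415, were close, while the levels behind them were lower on both sides. The 5 keratins together had 182421 and 171466 normalized reads in shctrl and 110417 and 117107 in shUSP2-AS1. They took 1.49% ± 0.0587 of the summed values of the listed genes in shctrl and 0.919% ± 0.0324 in shUSP2-AS1. EPPK1, PLEC, DSP and JUP together differed the other way, with 0.379% ± 0.0249 in shctrl and 0.552% ± 0.039 in shUSP2-AS1. KRT81, a hair keratin of the type II family with values near those of KRT7, is not a member and is in neither sum.

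Within the type I side the make-up differed. KRT19 made up 13.8% and 12.6% of KRT18 and KRT19 per kb in the shctrl libraries and 34.6% in each shUSP2-AS1 library. With canonical transcript lengths the means were 10.5% ± 0.651 and 29.0% ± 0.0134. A higher KRT19 and a lower KRT18 both enter this share. In bulk RNA, fewer cells with a transcript and less of it per cell cannot be told apart.

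**Figure D3:**
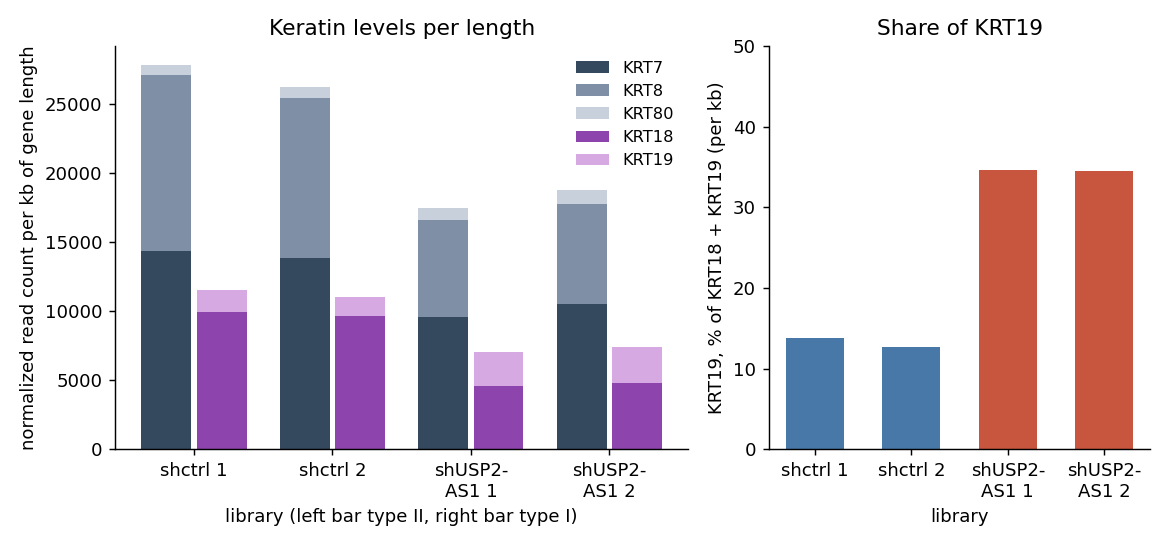
Left, normalized read count per kb of gene length for the type II keratins KRT7, KRT8 and KRT80 (left stacked bar of each library) and the type I keratins KRT18 and KRT19 (right stacked bar); right, KRT19 as a percentage of KRT18 plus KRT19 per kb in each library, shctrl in blue and shUSP2-AS1 in red. Both stacks are lower in the shUSP2-AS1 libraries, and the KRT19 share is 34.6% there against 12.6% and 13.8% in shctrl.

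The order of the members by level per kb was the same in both groups. From high to low it was KRT7, KRT8, KRT18, PLEC, KRT19, JUP, KRT80, DSP and EPPK1. In shctrl the mean levels per kb ran from 14141 ± 359 for KRT7 and 12155 ± 794 for KRT8 to 265 ± 16.5 for DSP. In shUSP2-AS1 the corresponding levels were 10048 ± 672, 7135 ± 180 and 328 ± 30.5. No neighbours in this order overlapped between their 2 libraries in either group. The order depends on the length used, since with canonical transcript lengths KRT8 stood above KRT7 in both groups. By mean, KRT19 then also stood above PLEC in both groups. In shctrl these means were nearly level, at 2501 for KRT19 and 2484 for PLEC, and the shctrl libraries were split on this order.

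The genes whose profiles over the 4 libraries were nearest to those of EPPK1 and KRT18 were found by the Euclidean distance of centred log2 values, as a description. Nearest to EPPK1 was FRG1 (distance 0.0681), with 1.93 and 2.20 normalized reads in shctrl and 71.5 and 55.5 in shUSP2-AS1, followed by MAT1A, COL5A3, VIL1 and UGT2B11 (0.561). MAT1A had 0 in both shctrl libraries. For values as low as those of FRG1 and MAT1A, the 1 added before log2 shapes the profile, so their distances are uncertain. VIL1, which encodes the actin-bundling protein villin of epithelial microvilli, had 5.80 and 4.40 in shctrl and 135 and 143 in shUSP2-AS1. Nearest to KRT18 were JADE1 (0.0219), WDR3, SUMO2, RCCD1 and ALKBH8 (0.0305). JADE1 had 1010 and 999 normalized reads in shctrl and 471 and 491 in shUSP2-AS1.

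Related genes were taken from 10 lists of plakins, desmosome proteins, keratins, other intermediate filaments, cell junctions, the cornified envelope and epithelial transcription factors. Of 154 genes on these lists, 54 were listed and tested, 18 were called higher and 6 lower. That is 33.3% and 11.1%, beside 16.1% and 13.5% of all tested genes, and the median log2 fold change was 0.50. The other 100 genes were not listed, so that they were not tested here. All p-values in the following are limma adjusted p-values over the 6812 genes. These genes had already passed the authors' test of the same 4 libraries. The adjustment does not correct for that selection, so the p-values are too small and are no independent evidence of a difference.

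All 3 other plakins were listed and 1 was called. DST (dystonin), whose epithelial form ties keratin to hemidesmosomes, had 5093 and 5687 normalized reads in shctrl and 12583 and 10948 in shUSP2-AS1 (log2 fold change 1.12, standard error 0.06, limma adjusted p = 3.28e-11). MACF1, which links actin and microtubules, had a log2 fold change of 0.38 (limma adjusted p = 7.90e-05), below the fold required for a call. EVPL (envoplakin), the partner of periplakin, had 1609 and 1659 in shctrl and 1170 and 1108 in shUSP2-AS1 (log2 fold change -0.52, limma adjusted p = 4.83e-07). EVPL was the only one of the 6 listed plakins, members included, with lower values in shUSP2-AS1.

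Of 13 other desmosome genes, 5 were listed, 2 were called higher and 1 lower, with a median log2 fold change of -0.33. DSC3, a desmosomal cadherin of stratified epithelium, rose from 192 and 215 to 531 and 497, a log2 fold change of 1.33 (limma adjusted p = 2.83e-09). PERP, a membrane protein of desmosomes, rose from 4475 and 4423 to 10070 and 9974, a log2 fold change of 1.17 (limma adjusted p = 3.54e-13). In contrast, PKP2, a plakophilin that binds desmoplakin, fell from 542 and 564 to 284 and 254, a log2 fold change of -1.04 (limma adjusted p = 2.70e-08). Without shUSP2-AS1 replicate 2 its log2 fold change was -0.96, outside the call rule. PKP4 had -0.86 and DSG2, the desmosomal cadherin of simple epithelium, had -0.33. Desmosome genes therefore stood on both sides of 0, with DSP, JUP, DSC3 and PERP at higher values and PKP2, PKP4 and DSG2 at lower values.

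Few other keratins were listed. Of 26 other type I keratin genes KRT16 alone was listed, and of 23 other type II genes KRT4 and KRT81 were. KRT16, a keratin of activated stratified epithelium, had 6 and 4 reads in shctrl and 36 and 46 in shUSP2-AS1 (log2 fold change 2.73, standard error 0.44, limma adjusted p = 1.45e-05). KRT4, a keratin of mucosal epithelium, fell from 59.9 and 81.3 to 32.6 and 21.1 normalized reads, a log2 fold change of -1.38 (limma adjusted p = 0.000207). KRT81 had 65136 and 61988 in shctrl and 44991 and 48005 in shUSP2-AS1 (log2 fold change -0.45, limma adjusted p = 7.81e-07). Of its 100-base windows, 30.3% are shared with other genes, KRT86 and KRT87P among them, so the value of KRT81 may hold reads of these genes.

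Among 16 other intermediate filament genes, 9 were listed, 2 were called higher and 2 lower, with a median of 0.47. The B-type nuclear lamin genes fell, LMNB1 with a log2 fold change of -2.31 (limma adjusted p = 3.54e-13) and LMNB2 with -1.19 (limma adjusted p = 5.82e-13). SYNC (syncoilin) rose with a log2 fold change of 1.41 (limma adjusted p = 1.57e-08), and NEFH, a neurofilament gene at 4 to 50 reads per library, was the other gene called higher. SYNM (synemin) had -0.57 and INA (internexin) 0.81, both below the fold for a call.

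All 6 hemidesmosome genes considered were listed, 2 were called higher and none lower, and the median log2 fold change was 0.82. COL17A1, the hemidesmosomal collagen, rose from 98.6 and 87.9 to 267 and 261, a log2 fold change of 1.49 (limma adjusted p = 2.84e-08). LAMB3, a laminin chain of the matrix to which hemidesmosomes attach, rose with 1.07 (limma adjusted p = 2.05e-11). With RLE scaling LAMB3 was at 0.95, outside the call rule. LAMA3, another laminin chain, had 0.83, the tetraspanin CD151 had 0.80 and the integrin subunit ITGA6 had 0.54. ITGB4, the integrin subunit that binds plectin, had -0.41, the opposite direction to PLEC.

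In the other junction lists, 10 of 13 adherens junction genes were listed, 4 were called higher and 0 lower (median 0.74). NECTIN4 rose from 27.1 and 20.9 to 178 and 166 (log2 fold change 2.80, limma adjusted p = 2.31e-09), CDH2 (N-cadherin) rose with 1.21 (limma adjusted p = 9.02e-12) and NECTIN3 with 1.19 (limma adjusted p = 1.57e-11). NECTIN2 had 0.82 and VCL (vinculin) 0.46, and CDH1 (E-cadherin) was not listed. Of 25 tight junction genes, 11 were listed, 2 were called higher and 2 lower (median -0.30). CLDN4 rose with 1.81 (limma adjusted p = 1.18e-09) and CGN (cingulin) with 1.12 (limma adjusted p = 1.50e-08), whereas CLDN12 fell with -1.14 (limma adjusted p = 1.40e-08). CLDN2 had 0.81 and MPP5 -0.70.

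Of 16 cornified envelope genes, 3 were listed and 2 were called higher (median 1.31). HRNR (hornerin) rose from 153 and 120 to 519 and 423, a log2 fold change of 1.79 (limma adjusted p = 1.68e-09), and CNFN (cornifelin) rose with 1.31 (limma adjusted p = 2.41e-07). FLG (filaggrin) had 0.94, and 1.11 without shctrl replicate 2, which would pass the call rule. Of 13 epithelial transcription factors, 4 were listed and 2 were called higher (median 0.91). KLF4 rose from 343 and 331 to 882 and 863, a log2 fold change of 1.37 (limma adjusted p = 7.20e-11), and TP63 rose with 1.58 (limma adjusted p = 3.66e-06). EHF had 0.45 and KLF5 -0.32.

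**Figure D4:**
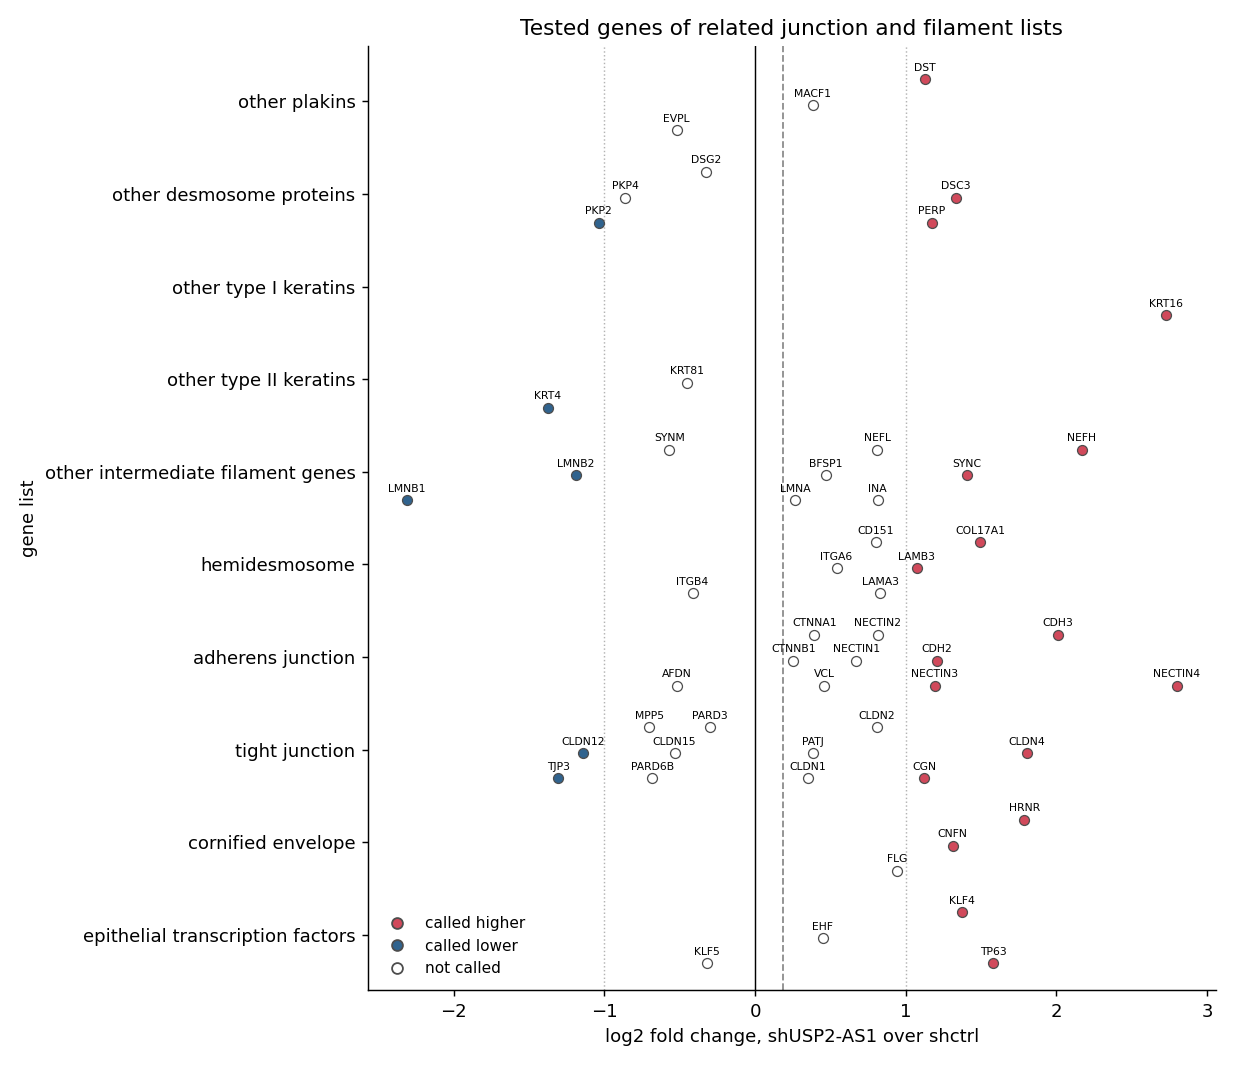
Log2 fold change (shUSP2-AS1 over shctrl) of the 54 tested genes of the 10 related lists, each point a gene, red if called higher, blue if called lower and white if not called. Dotted lines mark the fold required for a call and the dashed line the median of all tested genes. The 6 hemidesmosome genes lie above 0 except ITGB4, and the 5 desmosome genes lie on both sides.

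Cell type markers are given as a description, since this table cannot check the labelled line. The table is selected on this comparison, so markers that are not listed have no value here, and a count of called markers stands beside the 16.1% of all tested genes called higher and the 13.5% called lower. Of 11 epithelial markers, 5 were listed (the members KRT8, KRT18, KRT19 and KRT7, and CLDN4), with 1 called higher (CLDN4) and 1 lower (KRT18). Their summed value was 168250 to 179360 in shctrl and 106690 to 113270 in shUSP2-AS1, and it is made up mostly of KRT8, KRT7 and KRT18, whereas KRT19 and CLDN4 had higher values in shUSP2-AS1. Of 12 lung epithelial markers, ABCA3 alone was listed, and it rose with a log2 fold change of 1.76 (limma adjusted p = 2.95e-14). Of 11 squamous keratinocyte markers, 3 were listed (DSC3, TP63 and KRT16) and these 3 were called higher, with a summed value of 244 to 253 in shctrl and 665 to 680 in shUSP2-AS1. Of 9 fibroblast markers, 3 were listed (COL1A1, THY1 and LUM) and these 3 were called higher, with a summed value of 439 to 482 against 1017 to 1165. LUM had only 2 and 1 reads in shctrl and 24 and 18 in shUSP2-AS1. Without shUSP2-AS1 replicate 2 the log2 fold change of COL1A1 was 0.94, and without shctrl replicate 1 it was 0.96. With RLE scaling it was 0.93, and also with DESeq2 on recovered reads, which estimates the same size factors. Each of these COL1A1 values is outside the call rule. None of 6 immune and none of 4 endothelial markers were listed. The part of these markers in the values of the members was not tested.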

How the data were processed

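RNA-seq of A549 cells was deposited as 1 table with 2 shctrl and 2 shUSP2-AS1 libraries, which the study calls biological replicates. The authors had sequencing and analysis done by Novogene and compared the groups with DESeq2. The submitters' processing notes name HISAT2 2.0.5, featureCounts 1.5.0-p3, DESeq2 1.20.0 and hg38, without roles. The deposited signal is a read count per gene divided by a size factor. The authors also deposited group means, a log2 fold change and p-values of their comparison. These were not used, except to check that all 6828 listed genes had an adjusted p-value below 0.05. Columns were mapped by their names (scr and sh216) and the study's heading of the comparison as knockdown against scramble, and replicates by number. The labels do not say whether these numbers pair the samples. The correlation of replicate deviations between the groups was -0.0397, which cannot settle it. Samples were treated as unpaired, with a replicate block as an alternative.

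Values were fitted as log2(value + 1) with limma 3.58.1 (R 4.3.3; lmFit, eBayes with trend) over 6812 genes with a mean of at least 10, with Benjamini-Hochberg adjustment. Whole reads were recovered for 100% of values (within 0.01 reads) and used for edgeR 4.0.16 and DESeq2 1.42.0. Replicates differed by more than counting error (chi-square per degree of freedom 3.73 and 3.84). Other alternatives were scaling estimated on the listed genes alone, pseudocount, filters, a replicate block and leaving out each library. The limma and edgeR fits were tested on simulated data. Levels per kb used the gene length in the table or the GENCODE canonical transcript.

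The members and gene lists were chosen with earlier results of these data known. Named genes were the members, USP2-AS1, the tested genes of each list up to the 5 with the smallest p, and the 5 profiles nearest to the members with the highest and lowest fold change. NEFH, ITGB4 and CDH1 were named outside this rule, after their values were seen, as were KRT7-AS, KRT87P and KRT86, which overlap or share sequence with a named keratin gene. The p-values and standard errors rest on 2 libraries a group, with the variance of each gene drawn toward a trend over all tested genes. Those genes were selected on this comparison, so the standard errors may also be too small. One gene of the lists is not reported here and was left out of their counts.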

Additional observations from a re-analysis of the deposited data

How the results depend on the processing

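No member changed sign in 135 combinations of member and alternative, and 115 of these lay within the replicate SD. Part of this count was fixed in advance. The filters and the replicate block cannot change the log2 fold change of a member that is tested. With 2 libraries a group, leaving out 1 library cannot move it beyond this SD. These alternatives therefore say nothing about stability. The median log2 fold change of the 9 listed members was 0.36 as reported, 0.24 with RLE scaling and 0.42 with upper quartile scaling. DESeq2 on recovered reads, which estimates the same size factors as RLE scaling, also gave 0.24. With the authors' size factors, an alternative that was not planned, DESeq2 gave 0.36. The member median ran from 0.33 to 0.40 when 1 library was left out. RLE scaling moved the median of all genes by -0.12, and 45.0% of its calls were higher against 54.4% as reported. The alternative scalings were estimated on the listed genes alone, all of them selected on this comparison. They therefore cannot check the authors' size factors. With adjusted p alone, 3449 genes were higher and 3362 lower, against 1098 and 922, and 36 and 18 genes of the related lists, against 18 and 6. With the replicate block the calls were 1098 higher and 922 lower, 18 and 6 in the related lists, and the member median 0.36, so the block changed no count. When 1 library was left out, the calls ran from 1083 to 1101 higher and from 882 to 955 lower. The ratio of type II to type I keratins was 4.28 in shctrl and 4.60 in shUSP2-AS1 without length correction, and 3.47 and 3.69 with canonical transcript lengths, an alternative added after seeing the data. The length used sets its level, and in each case the ratio was higher in shUSP2-AS1. The design has 2 libraries a group, the table holds genes selected on this comparison, and 28 to 29 control reads limit the precision of EPPK1.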
